A study of Mus musculus with 8 samples.

Results

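The 9 genes described here encode proteins of the contacts between endothelial cells (EC), and they were followed in single-cell RNA sequencing of the adult mouse heart, in healthy ventricles and 7 days after myocardial infarction (MI). The genes, 9 of the 16791 in the count table, were chosen by name as Cdh5, Cldn5, Pecam1, Esam, Jam2, Jam3, F11r, Tjp1 and Ocln, and all 9 had a row. They were measured in 26835 EC from 8 mice, 10754 healthy and 16081 post-MI.

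EC hold to their neighbours through adherens junctions and tight junctions, and the leakiness of a vessel segment depends on both. Adherens junctions are built on VE-cadherin, which binds its like on the next cell and is anchored inside through catenins. Tight junctions seal the cleft with claudins, occludin and the immunoglobulin-like JAM and ESAM proteins, which are tied to actin by ZO scaffold proteins. PECAM1 (CD31) lies along the same contacts and takes part in the passage of leukocytes. Venules are known as the looser and capillaries and arterioles as the tighter segments of the vascular bed.

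All mice were adult and of the strain Pdgfb-iCreERT2-R26R-Brainbow2.1, in which the Pdgfb promoter drives an inducible Cre and each recombined cell takes 1 of several fluorescent colours. Every mouse, healthy or MI, received 1 injection of tamoxifen at 150 mg/kg. In the 4 MI mice (244, 250, 255 and 256) the left anterior descending coronary artery was tied permanently 14 days later, and hearts of all mice were taken 21 days after tamoxifen. The 4 healthy mice (227, 228, 239 and 240) had no operation, so that the operation and the infarct cannot be told apart. Ventricular cells positive for Confetti colours and CD31 and negative for podoplanin were sorted, and 1 droplet library was made per mouse. The sort aimed at EC in which the Pdgfb promoter had driven recombination, and EC without it are not represented. Since Pecam1 encodes the CD31 used for sorting, its presence is a property of the gate.

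The libraries of MI mice were deeper, with 15865234 to 27244947 unique molecular identifiers (UMIs) against 6764977 to 8793655 in healthy mice. Healthy libraries also shared cells. Mice 228 and 239 had 2041 barcodes in common, of which 2030 held nearly the same UMIs, mice 227 and 228 had 316 with 301 such copies, and mice 239 and 240 had 20 with 2 copies. Other pairs shared 10 to 40 barcodes and no copies. Which mouse a copied cell came from is not known. Each was kept only in the mouse where it had more UMIs, or in the mouse of higher number where these were equal. All 2030 cells shared with mouse 239 were thus taken out of mouse 228 (1599 EC left) and 301 out of mouse 227. With copies kept, the share of cells with a UMI in mouse 228 went from 64.3 to 56.8% for Cdh5, from 51.4 to 55.2% for Esam and from 43.5 to 40.5% for Jam2 in cells brought to equal depth, and log2 fold changes with copies kept are given for Jam2, Jam3 and Tjp1. Cells with over 1% of their UMIs on haematopoietic, mural, fibroblast or platelet markers, or over 5% on haemoglobin genes, were set aside (1860 cells). In the cells kept, the EC gene Egfl7 lay at 1416 to 1748 counts per 1000000 UMIs (CPM) in every mouse, while Ptprc, Prox1 and Pdpn lay at 4.21 CPM or less. The endothelial marker list as a whole was lower after MI, at 4018 to 4455 CPM against 4903 to 5291 CPM in healthy libraries, and among its genes Kdr spanned 399.9 to 933.3 CPM and Flt1 380.2 to 792.4 CPM. The mural gene Rgs5 was at 28.4 to 145.8 CPM and the fibroblast gene Dcn at 1.43 to 26.6 CPM over the 8 mice, and the mural list at 85.1 to 193 CPM in healthy and 103 to 179 CPM in MI libraries. The part of these in the results was not tested. The haematopoietic marker genes together made up 50.5 to 181 CPM in the healthy libraries and 331 to 594 CPM in the MI libraries. For these, the limits were also lowered and all cells kept as alternatives.

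Jam2, which encodes JAM-B, was lower in every MI mouse than in every healthy mouse. Its level was 563, 575, 480 and 448 CPM in healthy mice 227, 228, 239 and 240, and 282, 346, 256 and 355 CPM in MI mice 244, 250, 255 and 256. The means were 516 ± 62.5 and 310 ± 48.4 CPM (SD, n = 4 each), and the groups did not overlap. The share of all genes whose groups do not overlap was not determined, here or for the genes below. Summed counts per mouse were compared with edgeR's quasi-likelihood test, in which Jam2 fell by 0.82 ± 0.13 on the log2 scale (SE, adjusted p = 0.00179). Since MI libraries were deeper, cells were also thinned at random to 1000 UMIs. This left out 587 shallower EC, all of them healthy (5.46% of healthy EC), which also enter no class below. At that depth a Jam2 UMI was found in 37.2 to 43.5% of healthy and 22.7 to 31.2% of MI cells. Cells with at least 2 Jam2 UMIs made up 11.1 ± 2.08% and 5.24 ± 1.28% (SD, n = 4 each).

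Jam3, which encodes JAM-C, also fell. The healthy mice stood at 117, 149, 177 and 193 CPM and the MI mice at 90.9, 121, 57.6 and 101 CPM, in the same order of mice. The groups overlapped, as MI mouse 250 stood above healthy mouse 227. The decrease was 0.87 ± 0.22 on the log2 scale (SE, adjusted p = 0.0135). At 1000 UMIs a Jam3 UMI was found in 14.7 ± 2.86% of healthy and 9.73 ± 2.52% of MI cells (SD, n = 4 each).

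Tjp1 encodes ZO-1, the scaffold that binds claudins and JAM proteins from inside the cell. Its healthy values were 172 and 173 CPM in mice 227 and 228 but 88.8 and 97.0 CPM in mice 239 and 240. The MI values of 80.0, 85.5, 79.7 and 98.0 CPM lay beside the lower healthy pair. The test gave a decrease of 0.71 ± 0.22 on the log2 scale (SE, adjusted p = 0.0287). This call was lost when any of mice 227, 228, 244, 250 or 255 was left out (adjusted p of 0.0637 to 0.0785), and with both 227 and 228 left out the difference was −0.19 ± 0.11 (SE, adjusted p = 0.236). The share of cells with a Tjp1 UMI in mouse 228 was 16.0% without and 12.7% with the copied cells, against 15.0% in mouse 227, 8.26% in mouse 239 and 9.62% in mouse 240.

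Of the 8 members that passed the filter on low counts, these 3 were called and all 3 were lower, against 37.3% of the 12317 genes tested that were called and 18.7% called lower. The median log2 fold change was −0.15 over the 8 members and −0.02 over all genes tested. With copied cells kept, the log2 fold changes were −0.80 for Jam2, −0.88 for Jam3 and −0.63 for Tjp1. In cells thinned to 1000 UMIs they were −0.77, −0.74 and −0.68, and with the limits for other cell types multiplied by 0.5 they were −0.82, −0.87 and −0.71. With mice 227 and 228 left out, an alternative chosen after the data were seen, 2 members were called, Jam2 at −0.66 (adjusted p = 0.0178) and Jam3 at −1.08 (adjusted p = 0.0192). In that fit 9 members were tested, and 26.4% of 13314 genes were called, 12.7% lower.

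The other 5 members tested were not called. Cdh5, which encodes VE-cadherin, lay at 1182, 1085, 978 and 1059 CPM in healthy mice and at 1030, 1047, 910 and 962 CPM in MI mice, and the groups overlapped. Its log2 fold change was −0.21 ± 0.08 (SE, adjusted p = 0.0755), and it passed the threshold with DESeq2 (adjusted p = 0.0463) and without mouse 239 (adjusted p = 0.0481). Cldn5, which encodes claudin-5, the main claudin of EC, spanned 625 to 872 CPM in healthy and 542 to 903 CPM in MI mice. Its lowest MI value was that of mouse 255. The log2 fold change was −0.09 ± 0.16 (SE, adjusted p = 0.687) and turned to 0.057 without that mouse.

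Pecam1 was at 737 to 843 CPM in healthy and 845 to 976 CPM in MI mice, which did not overlap. After the scaling of the test its log2 fold change was 0.10 ± 0.07 (SE, adjusted p = 0.313). Esam, an adhesion protein of EC and platelets, was at 865 ± 127 and 994 ± 31.7 CPM (SD, n = 4 each), with a log2 fold change of 0.11 ± 0.10 (SE, adjusted p = 0.386). F11r, which encodes JAM-A, was at 336 ± 41.2 and 367 ± 24.0 CPM (SD, n = 4 each), with a log2 fold change of 0.04 ± 0.09 (SE, adjusted p = 0.776). The 3 JAM genes thus had different values after MI, with Jam2 and Jam3 called lower and F11r not called, although the differences among them were not tested.

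**Figure D1:**
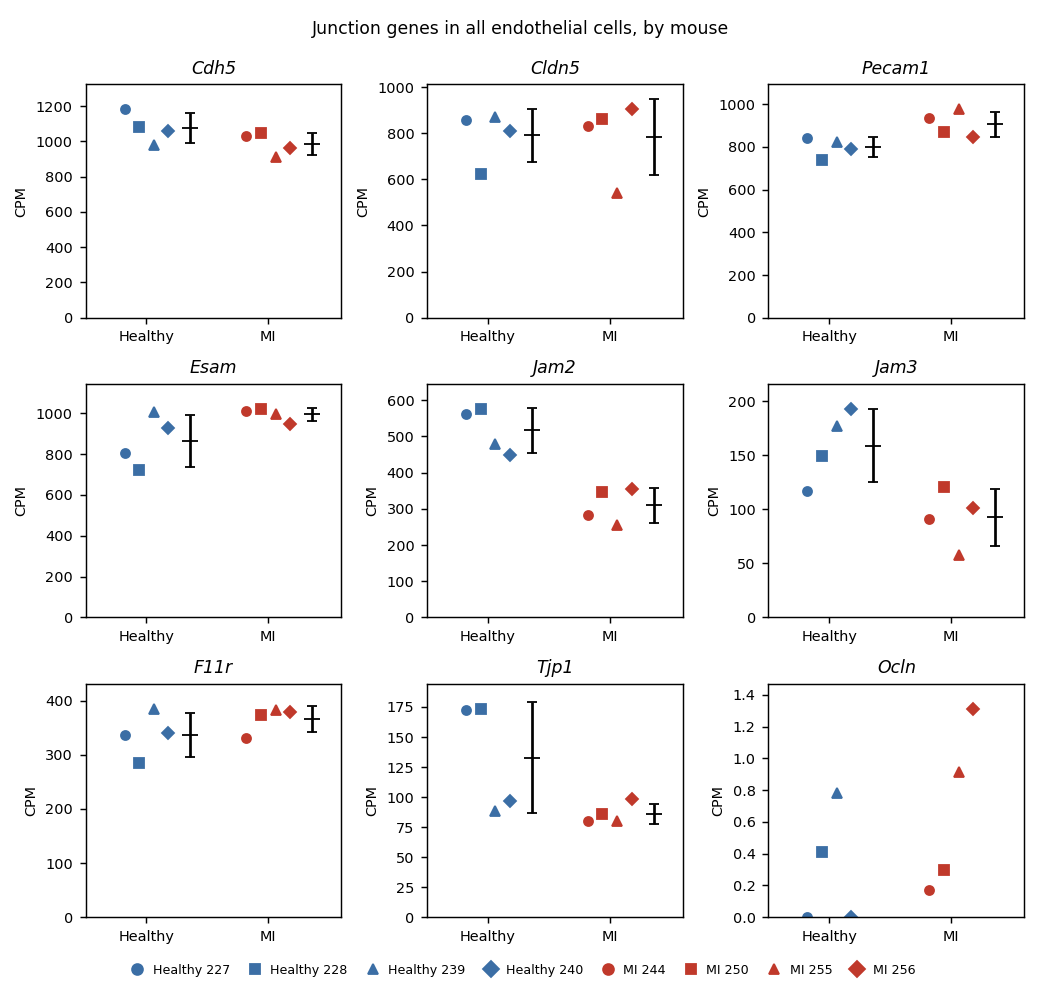
CPM of each gene in all EC of each mouse, with the healthy mice in blue and the MI mice in red. Black bars give the mean ± SD of 4 mice (not drawn for Ocln), and axes start at 0. The MI mice lie below all healthy mice for Jam2, and healthy mice 227 and 228 lie apart from the other mice for Tjp1.

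Ocln, which encodes occludin, a tight junction protein of epithelia and of the blood-brain barrier, was rarely detected. It had 58 UMIs in 51 of the 26835 EC. No UMI was found in healthy mice 227 and 240, where the limit that a count of 0 allows (3 UMIs) is 0.490 and 0.397 CPM, and the highest value was 1.31 CPM in MI mouse 256. Ocln did not pass the filter on low counts and is left out of the comparisons.

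On GRCm38 (mm10), the build of the count table, the genes lie apart from one another except for Cldn5 and Jam2, which share chromosome 16, and Esam and Jam3, which share chromosome 9. The annotation (GENCODE vM21) places Cdh5 at chr8:104101625-104144511, Pecam1 at chr11:106654217-106750628, Esam at chr9:37528078-37538319 and Jam3 at chr9:27097384-27155421. Jam2 lies at chr16:84774123-84825928, F11r at chr1:171437535-171464603, Tjp1 at chr7:65296165-65527781 and Ocln at chr13:100496507-100552718. Cldn5, at chr16:18776847-18778262, is a gene of 1 exon. On the same strand, Gm25908 overlaps Jam2, and Gm44792 and Gm44794 overlap Tjp1. None of these has a row in the count table, and whether reads were shared with them was not tested.

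The EC of a heart belong to different vessel segments, so the members were also read by class. Classes were set by marker UMIs in the thinned cells: arterial cells had Gja4, capillary cells Car4, sprouting cells Apln, venular cells Ackr1, and Plvap-high cells at least 2 Plvap UMIs without Ackr1. Cells that met several rules were left out. Each class was checked by the genes of its marker list that the rule did not use. In MI mice these were highest in their own class for 7 of 7 arterial, 6 of 6 venular, 4 of 5 capillary and 4 of 5 sprouting genes. Of the sprouting genes, Esm1 was nearly as high in arterial cells (61.0 against 59.8 CPM). Angpt2, at 43.9 CPM in sprouting cells, was higher in Plvap-high (48.3 CPM) and venular cells (71.8 CPM). Aqp1 of the capillary list was highest in venular cells. The classes of healthy mice, among them healthy sprouting cells, were not checked in this way. For Plvap-high cells, Col4a1 was highest in its own class, while Lrg1, Bgn and Vwf were higher in venular cells. There were 2198 capillary, 569 arterial and 292 sprouting cells in healthy mice, and 1460 capillary, 1193 arterial, 1253 sprouting, 860 Plvap-high and 224 venular cells in MI mice. Healthy mice had 9 Plvap-high cells and 1 venular cell. Of all EC, 6991 healthy (65.0%) and 10708 MI cells (66.6%) reached this depth and met no rule. The healthy total also holds the 5.46% of cells below this depth, while no MI cell lay below it. The group that met no rule can hold cells of every class, since 1 UMI decides. Of MI cells, 1402 had 1 Plvap UMI, 513 had 2 and 687 had 3 or more.

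Within classes of the same mice, the members called after MI were Jam2, Jam3 and Tjp1 in capillary cells, Jam2 in arterial cells and Jam3 in sprouting cells. Among capillary cells, Jam2 fell by 0.66 ± 0.13, Jam3 by 0.66 ± 0.19 and Tjp1 by 0.75 ± 0.21 on the log2 scale (SE, adjusted p = 0.00359, 0.0359 and 0.0276). These 3 of 8 members are read against 15.6% of 8814 genes called and 8.33% called lower. The capillary Jam2 levels were 541 to 680 CPM in healthy and 341 to 443 CPM in MI mice and did not overlap. The call of Jam2 stood in all 15 alternatives run for capillary cells, while that of Jam3 stood in 7 and that of Tjp1 in 9 of 15. Leaving out mouse 228, 239, 240, 244, 255 or 256 ended the capillary call of Jam3, and leaving out mouse 227, 228, 244, 250 or 255 that of Tjp1.

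Among arterial cells, Jam2 was the 1 member called, with a decrease of 0.65 ± 0.14 on the log2 scale (SE, adjusted p = 0.00514), where 12.9% of genes were called and 6.88% called lower. Its levels were 417 to 484 CPM in healthy and 240 to 353 CPM in MI mice. Arterial Jam3 was low in both groups, at 58.5 ± 11.9 and 52.6 ± 20.2 CPM (SD, n = 4 each), and was not called (log2 fold change −0.22 ± 0.28, SE, adjusted p = 0.676).

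Among sprouting cells, Jam3 was the 1 member called, with a decrease of 0.71 ± 0.18 on the log2 scale (SE, adjusted p = 0.0364), where 4.81% of genes were called and 2.99% called lower. With thinned counts it was not called (−0.78, adjusted p = 0.112). No member was called there when mouse 228, 239, 240, 244 or 255 was left out, where 2.37 to 3.52% of genes were called. In cells that met no rule, a comparison added after the data were seen, Jam2, Jam3 and Tjp1 fell by 0.76, 0.73 and 0.70 on the log2 scale (adjusted p = 0.00241, 0.0232 and 0.0263), with 33.1% of genes called and 16.7% called lower. Without mouse 244 only 1 of these, Jam2, was called, where 23% of genes were called.

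**Figure D2:**
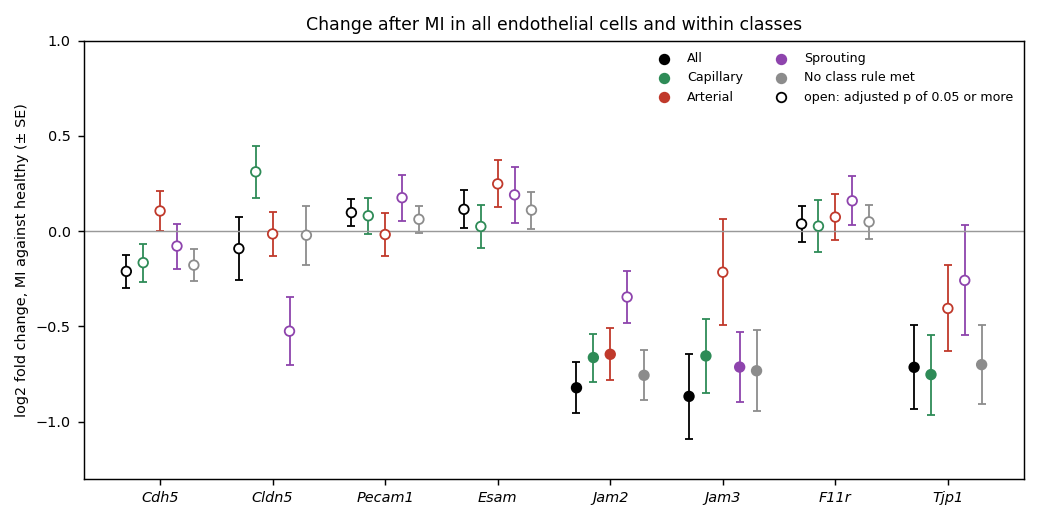
Log2 fold change (MI against healthy, vertical axis, ± SE) of the 8 members tested, in all EC and in each class, from summed counts of 4 healthy and 4 MI mice. Filled points have an adjusted p under 0.05. Filled points are found for Jam2, Jam3 and Tjp1, all below 0, and Cldn5 points lie on both sides of 0.

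Cldn5 differed widely between classes. In MI mice it was at 998 ± 120 CPM in capillary, 886 ± 36.6 CPM in arterial and 1133 ± 251 CPM in sprouting cells (SD, n = 4 each). In Plvap-high cells it was at 280.5, 391.6, 219.6 and 415.3 CPM in mice 244, 250, 255 and 256. In venular cells it was at 278, 153 and 112 CPM in mice 244, 250 and 255. Every one of these 7 values lay below the lowest capillary value of 905 CPM. Mouse 256 had 12 venular cells, under the minimum of 20, and its 568 CPM entered no test.

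Classes were compared with capillary cells of the same mice, and all of these comparisons share the capillary cells. Cldn5 was lower by 1.63 ± 0.13 in Plvap-high cells and by 2.43 ± 0.19 in venular cells on the log2 scale (SE, adjusted p = 9.76e-11 and 1.07e-10). Both calls stood in every alternative run. At 1000 UMIs a Cldn5 UMI was found in 50.4 ± 2.70% of capillary (SD, n = 4), 21.4 ± 5.34% of Plvap-high (SD, n = 4) and 9.48 ± 4.51% of venular cells (SD, n = 3). In the haematopoietic cells set aside, pooled over all mice, the share was 11.02% (Wilson 95% interval 9.43 to 12.8%). These were 1288 cells with a median depth of 6786 UMIs before thinning, and 15.1% of them had a Cdh5 UMI. Why they held such UMIs was not tested, so their Cldn5 share is not a measured background. The venular mean was not above that share, and the Plvap-high mean was above it.

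Sprouting cells of healthy mice had the highest mean Cldn5 level of the classes, although they overlapped with sprouting cells of MI mice. They stood at 1958, 1184, 1652 and 1373 CPM in mice 227, 228, 239 and 240, against 904, 560, 819 and 777 CPM in the capillary cells of the same mice. The values were higher in 4 of 4 mice, by 1.02 ± 0.08 on the log2 scale (SE, adjusted p = 2.93e-14). In MI mice sprouting cells stood at 1171, 1202, 782 and 1377 CPM against 1159, 905, 908 and 1019 CPM in capillary cells, and the difference of 0.15 ± 0.12 was not called (SE, adjusted p = 0.473). With thinned counts it was 0.30 ± 0.0864 and called (SE, adjusted p = 0.0125). The difference between these differences was tested as an interaction, added after the data were seen. The excess of Cldn5 in sprouting over capillary cells was smaller in MI mice by 0.79 ± 0.10 on the log2 scale (SE, adjusted p = 5.34e-07). Cldn5 was the 1 member of 8 called in that test, against 2.95% of 10157 genes called and 2.08% called lower, and the call stood in all 15 alternatives, with −0.67 ± 0.121 for thinned counts (SE, adjusted p = 5.47e-05). Neither arm was called alone in the fit described. Cldn5 had a log2 fold change after MI of 0.31 ± 0.14 in capillary cells (SE, adjusted p = 0.136) and −0.53 ± 0.18 in sprouting cells (SE, adjusted p = 0.104). The latter was called with copied cells kept (−0.60, adjusted p = 0.0296) and with cells of several classes kept in each (−0.62, adjusted p = 0.0453). Healthy sprouting cells were few, 40 to 110 in a mouse.

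**Figure D3:**
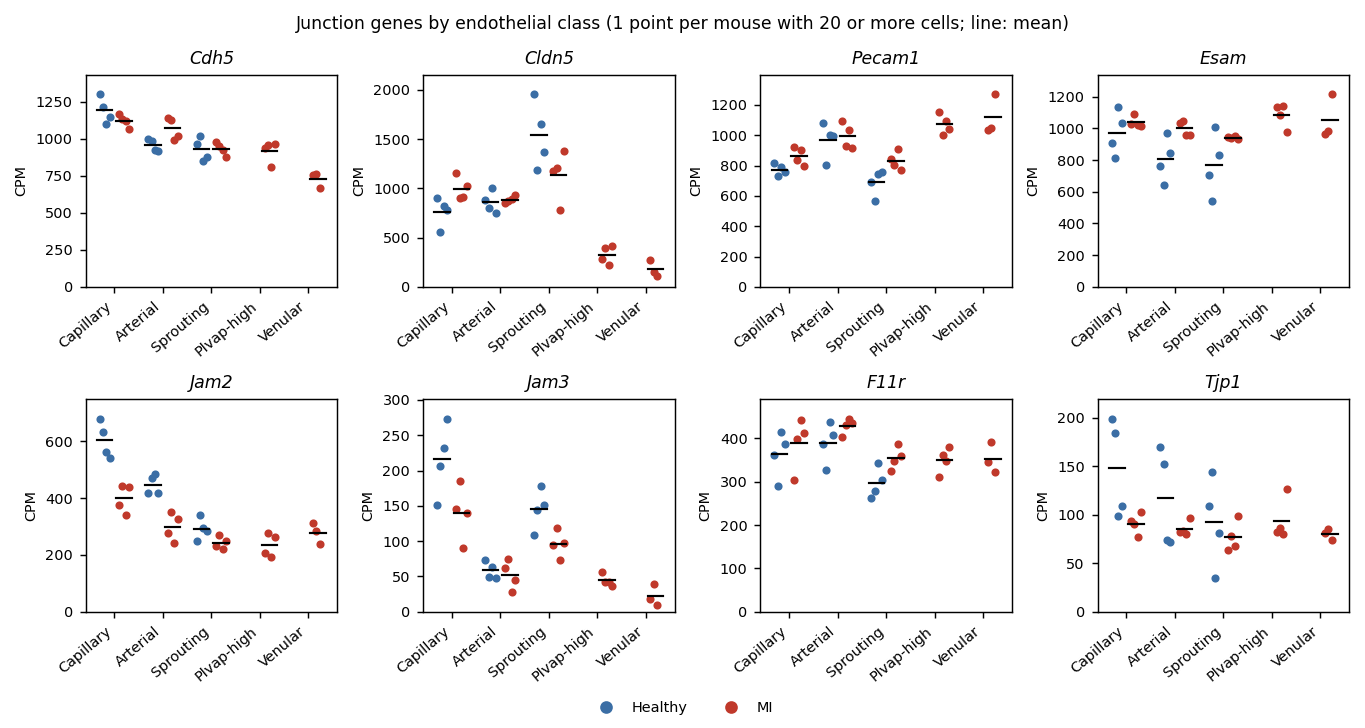
CPM of the 8 members in each class, 1 point per mouse with at least 20 cells of that class, healthy in blue and MI in red, with the mean as a line. Cldn5 drops in Plvap-high and venular cells, Jam3 is highest in capillary cells, and F11r and Esam are nearly level between the classes of MI mice.

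The ratio of Cldn5 to Cdh5 UMIs compares the tight junction claudin with the adherens junction cadherin in the same cells and needs no scaling between libraries. In MI mice it was 0.891 ± 0.1 in capillary, 0.833 ± 0.0891 in arterial and 1.22 ± 0.297 in sprouting cells (SD, n = 4 each). It was 0.353 ± 0.0787 in Plvap-high (SD, n = 4) and 0.246 ± 0.108 in venular cells (SD, n = 3). In healthy mice it was 0.645 ± 0.125 in capillary, 0.900 ± 0.126 in arterial and 1.68 ± 0.397 in sprouting cells (SD, n = 4 each). Over all EC the groups overlapped, at 0.739 ± 0.130 before and 0.792 ± 0.143 after MI (SD, n = 4 each). The capillary ratios did not overlap, with healthy mice at 0.462 to 0.745 and MI mice at 0.799 to 0.995.

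**Figure D4:**
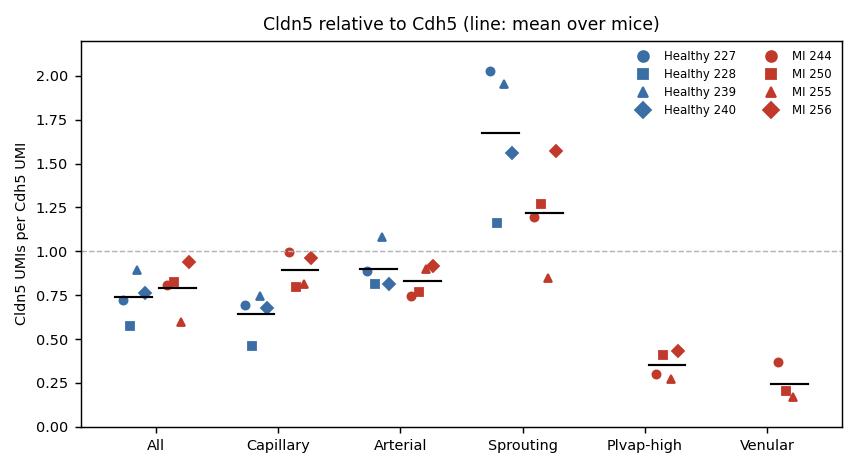
Cldn5 UMIs per Cdh5 UMI (vertical axis, dashed line at 1) in all EC and in each class, 1 point per mouse and the mean as a line. Mean ratios are lowest in Plvap-high and venular cells and highest in healthy sprouting cells, whose points overlap those of MI sprouting cells.

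The sequences before the transcription start are shown for Cldn5, which with Jam3 varied most between classes, and for F11r, which varied little. They come from the RefSeq promoter table (GRCm38.p6), which matched 4 of the 9 members, Cldn5, F11r, Tjp1 and Ocln. Capitals mark CCAAT or its reverse complement ATTGG, letters chosen after the sequences had been seen. The Cldn5 sequence is chr16:18776597-18776846 on the plus strand and the F11r sequence is chr1:171437311-171437534 on the plus strand, which ends where the annotated gene begins.
Cldn5: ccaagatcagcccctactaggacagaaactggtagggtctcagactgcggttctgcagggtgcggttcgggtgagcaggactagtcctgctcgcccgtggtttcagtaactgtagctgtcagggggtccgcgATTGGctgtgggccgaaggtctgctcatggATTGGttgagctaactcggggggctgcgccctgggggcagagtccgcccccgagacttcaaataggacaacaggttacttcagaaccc
F11r: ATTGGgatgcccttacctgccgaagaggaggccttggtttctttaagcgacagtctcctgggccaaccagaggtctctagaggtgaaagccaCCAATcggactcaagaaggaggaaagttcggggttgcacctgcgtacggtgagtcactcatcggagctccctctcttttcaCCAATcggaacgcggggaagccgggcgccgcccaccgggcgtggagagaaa
The Cldn5 stretch holds 2 such matches and the F11r stretch 3, and 33.8% of all 32851 promoters hold at least 1 in the 250 bases before their start. Searches on both strands for CCGGAA (bound by ETS factors), CACACCC (KLF), ACAATG (SOX) and GTAAACA (FOX) gave no match in the 250 bases before the Cldn5, F11r and Tjp1 starts. These letters are held by 12, 6.93, 10.7 and 3.17% of all promoters of that length. A start listed for Ocln had 1 CCGGAA and 1 CACACCC match before it. A match is a description of the letters only.

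Jam3 was highest in capillary cells in both groups. In healthy mice it was at 152, 206, 232 and 274 CPM in capillary cells of mice 227, 228, 239 and 240, and at 72.8, 49.8, 63.9 and 47.6 CPM in arterial cells, lower in 4 of 4 mice. The arterial difference was −1.96 ± 0.16 before and −1.46 ± 0.14 after MI on the log2 scale (SE, adjusted p = 2.42e-14 and 2.71e-09). In MI mice it was −1.55 ± 0.14 in Plvap-high and −2.92 ± 0.28 in venular cells (SE, adjusted p = 1.01e-09 and 4.12e-09). Venular cells held a mean of 22.4 ± 15.4 CPM (SD, n = 3) against 140 ± 39.3 CPM in capillary cells (SD, n = 4). In sprouting cells the difference was −0.56 ± 0.14 before and −0.59 ± 0.12 after MI (SE, adjusted p = 0.00167 and 8.23e-04), and the healthy call was lost with DESeq2, with thinned counts (adjusted p = 0.104) and without mouse 240. Within this order, arterial and Plvap-high cells of MI mice, at 52.6 ± 20.2 and 44.4 ± 8.02 CPM (SD, n = 4 each), overlapped.

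Jam2 was also highest in capillary cells, in both groups. In healthy mice it was at 604 ± 64.1 CPM in capillary, 448 ± 34.3 CPM in arterial and 292 ± 37.5 CPM in sprouting cells (SD, n = 4 each). In MI mice it was at 400 ± 49.8, 299 ± 49.9 and 243 ± 21.6 CPM in the same classes, at 235 ± 41.3 CPM in Plvap-high (SD, n = 4 each) and at 278 ± 38.1 CPM in venular cells (SD, n = 3). Against capillary cells, Jam2 was lower by 0.44 in arterial cells of both groups, by 1.02 in healthy and 0.73 in MI sprouting cells, by 0.76 in Plvap-high and by 0.39 in venular cells on the log2 scale. All of these were called (largest adjusted p = 0.00260). The venular call was lost when thinned counts were summed (adjusted p = 0.542). Sprouting, Plvap-high and venular cells of MI mice overlapped in their Jam2 levels.

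Cdh5 was lower in sprouting, Plvap-high and venular than in capillary cells. In MI mice it was at 1119 ± 43.1 CPM in capillary and 1069 ± 76.6 CPM in arterial cells, and at 932 ± 43.7 CPM in sprouting and 916 ± 74.2 CPM in Plvap-high cells (SD, n = 4 each). Venular cells had 727 ± 50.8 CPM (SD, n = 3). Cdh5 was lower than in capillary cells by 0.28 in sprouting, 0.28 in Plvap-high and 0.56 in venular cells on the log2 scale (adjusted p = 5.95e-04, 3.66e-04 and 5.00e-07). In healthy mice it was lower by 0.34 in arterial and 0.35 in sprouting cells (adjusted p = 2.86e-04 and 3.52e-04). With thinned counts the healthy sprouting difference was −0.18 and not called (adjusted p = 0.251).

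Pecam1 was ordered otherwise, with 1117 ± 134 CPM in venular (SD, n = 3) and 1072 ± 64.5 CPM in Plvap-high cells (SD, n = 4), which overlapped. Sprouting cells, at 689 ± 86.5 CPM before and 831 ± 60.4 CPM after MI, were not called against capillary cells, at 773 ± 38.8 and 863 ± 56.9 CPM (SD, n = 4 each, adjusted p = 0.261 and 0.419). Against capillary cells it was higher by 0.43 ± 0.07 in venular and 0.33 ± 0.06 in Plvap-high cells on the log2 scale (SE, adjusted p = 4.81e-05 and 1.28e-04). It was also higher in arterial cells, by 0.29 ± 0.08 before and 0.18 ± 0.06 after MI (SE, adjusted p = 0.00389 and 0.0413), where the healthy call was lost without mouse 240 and with no filter, and the MI call without any 1 of the 4 MI mice, with no filter and with thinned counts (adjusted p = 0.184).

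Esam and F11r were nearly level. In MI mice Esam had class means from 941 CPM in sprouting to 1084 CPM in Plvap-high cells, and F11r from 350 CPM in Plvap-high to 429 CPM in arterial cells, and neither was called in any class of MI mice, except Esam in sprouting cells with thinned counts (log2 difference −0.25, adjusted p = 0.0470) and in Plvap-high cells when these needed 3 Plvap UMIs (0.19, adjusted p = 0.0363). In healthy mice Esam was lower by 0.30 in arterial and 0.31 in sprouting cells on the log2 scale (adjusted p = 0.00212 and 0.00222), and F11r by 0.28 in sprouting cells (adjusted p = 0.0377, lost in 6 of 11 alternatives, among them without mouse 227, 239 or 240). Tjp1 was lower than in capillary cells by 0.40 in arterial and 0.68 in sprouting cells of healthy mice (adjusted p = 0.0437 and 0.00143) and by 0.29 in sprouting cells of MI mice (adjusted p = 0.0327). The healthy sprouting call of Tjp1 was lost with thinned counts (adjusted p = 0.138). The arterial call of Tjp1 was lost when any of the 4 healthy mice was left out and the call in MI sprouting cells in 9 of 11 alternatives, among them without mouse 244, 250 or 255 and with thinned counts, where the difference was −0.004 (adjusted p = 0.997).

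In counts, 5 of 8 members were called in venular cells of MI mice, 4 of them lower (22.3% of 10062 genes called, 10.2% lower), and 5 in Plvap-high cells, 4 of them lower (28.1% and 13.1%). In arterial cells of MI mice 3 were called, Jam2 and Jam3 as lower (16.5% and 7.59%), and in sprouting cells 4, all lower (16% and 7.97%). With thinned counts 5 were called in MI sprouting cells, Cldn5 as higher and Cdh5, Esam, Jam2 and Jam3 as lower. That fit called 10.1% of 5934 genes, 5.09% higher and 5.02% lower. In healthy mice 6 were called in arterial cells, 5 of them lower (17.6% of 6456 genes called, 8.24% lower), and 7 in sprouting cells, 6 of them lower (23.8% and 10.6%). Whether the arterial against capillary difference itself changed after MI was tested as an interaction. No member of 8 was called in it by edgeR and none by DESeq2, where edgeR called 0.985% of 10155 genes, 0.483% lower. An unadjusted p under 0.05 was given by edgeR for 4 members (Cdh5, Cldn5, Esam and Jam3) and for 969 of the 10155 genes.

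Transcripts of the members were also found in the cells set aside as other types, all thinned to 1000 UMIs. Cdh5 UMIs were found in 15.1% of haematopoietic, 24.0% of mural and 10.1% of fibroblast cells, against 63.5% of EC. Tjp1 was found in 2.02, 5.85 and 4.35% of these cells and in 9.50% of EC. In mural cells, the pericytes and smooth muscle cells of the vessel wall, Pecam1 was found in 27.2%, Cldn5 in 21.6% and F11r in 13.5%, against 57.01, 42.91 and 29.56% of EC. Esam was found in 40.1% and Jam3 in 13.2% of 342 mural cells (Wilson 95% intervals 35.0 to 45.3% and 9.98 to 17.2%), against 60.9 and 11.9% of EC and 17.2 and 1.24% of haematopoietic cells. In the 32 cells set aside by platelet markers, Esam was found in 40.6% (Wilson 95% interval 25.5 to 57.7%). The mural cells had a median depth of 4914 UMIs and the EC of 3122 UMIs before thinning.

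**Figure D5:**
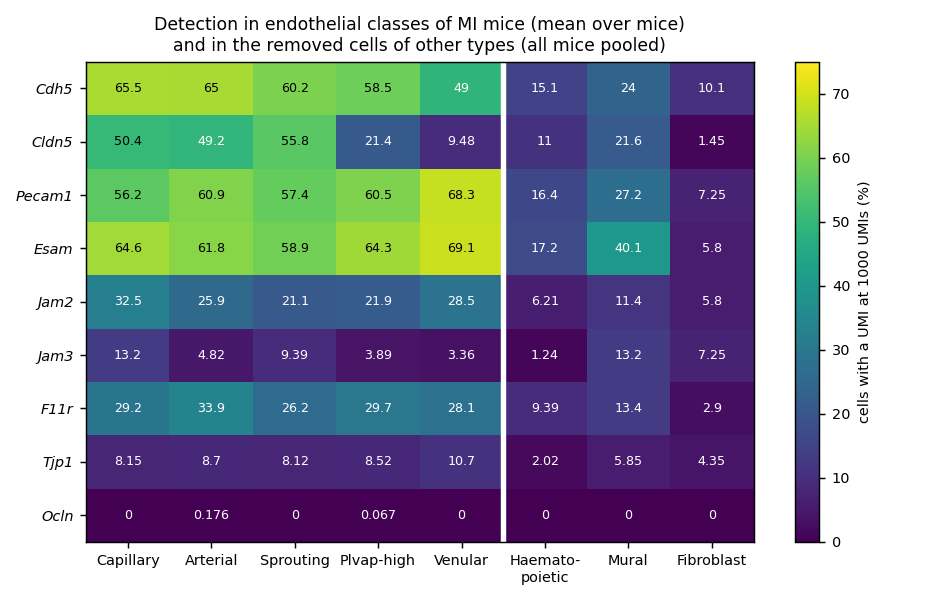
Percentage of cells with at least 1 UMI of each gene after thinning to 1000 UMIs, for the 5 classes in MI mice (mean over mice) and for the haematopoietic, mural and fibroblast cells set aside (all mice pooled). Colour and printed number show the same value. Cldn5 runs from 55.8% in sprouting to 9.48% in venular cells, and Esam stays between 58.9 and 69.1% in the 5 classes.

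Cells at 1000 UMIs had UMIs of 3.15 ± 0.0819 members before and 3.02 ± 0.141 members after MI (SD, n = 4 each), and the groups overlapped. Cells with 5 or more members made up 14.4 to 16.3% in healthy and 9.13 to 14.2% in MI mice. Cdh5 and Cldn5 UMIs were found together in 27.3 ± 2.85% of healthy and 27.6 ± 4.66% of MI cells, against a product of their separate shares of 27.1 ± 2.43 and 27.1 ± 5.09% (SD, n = 4 each), so the cadherin and the claudin were met in the same cells about as often as their shares alone give.

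Genes with the most similar pattern were sought over 31 sums of 1 mouse and 1 class, among 3311 genes of at least 50 CPM on average, by Pearson's r of log2(CPM + 10). The sums share mice, libraries and depth, and the r values are descriptions. For Cdh5 these were Sept4 (r = 0.898), Cd38 (0.888), Rgcc (0.854) and Jup (0.843), the gene of plakoglobin, a catenin. For Cldn5 they were Ptp4a3 (0.921), Ercc1 (0.885), Nes (0.880) and Icam2 (0.878). For Pecam1 they were Ehd4 (0.901), Clec14a (0.893), Vamp5 (0.880) and Clu (0.870). Among the members, r was 0.651 for Cldn5 with Jam3 and −0.769 for Pecam1 with Jam3.

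A list of 33 other junction genes was read beside the members, and 32 had a row. Of 29 tested in all EC, 7 were called lower and 4 higher after MI, against 18.7% of all genes tested called lower and 37.3% called in either direction, and their median log2 fold change was −0.12. The 4 called lowest were Ptprb, which encodes VE-PTP, a phosphatase that binds VE-cadherin (736 ± 184 CPM in healthy and 409 ± 66.9 CPM in MI mice), Mllt4, which encodes the scaffold afadin (265 ± 39.3 and 158 ± 43.0 CPM), Jup (309 ± 25.0 and 227 ± 30.8 CPM) and Cldn12 (7.18 ± 1.52 and 5.33 ± 0.389 CPM; SD, n = 4 each). Their log2 fold changes were −0.94 ± 0.19, −0.83 ± 0.20, −0.53 ± 0.11 and −0.53 ± 0.17 (SE, adjusted p = 0.00437, 0.00952, 0.00614 and 0.0349). The call of Cldn12 was lost in 7 of 19 alternatives, among them without mouse 239, 240, 244, 250 or 255. Without both mice 227 and 228, Mllt4 and Jup were not called (adjusted p = 0.0726 and 0.0532).

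The 4 called higher were Pvrl2, which encodes nectin-2, at 25.6 ± 4.74 CPM in healthy and 73.0 ± 11.9 CPM in MI mice, Cldn15 at 11.8 ± 2.83 and 28 ± 3.21 CPM, Mcam (CD146) at 114 ± 33.1 and 184 ± 14.8 CPM, and Cdh13 (T-cadherin) at 200 ± 16.5 and 283 ± 12.2 CPM (SD, n = 4 each). Their log2 fold changes were 1.42 ± 0.15, 1.15 ± 0.16, 0.60 ± 0.17 and 0.42 ± 0.08 (SE, adjusted p = 2.91e-04, 8.78e-04, 0.0231 and 0.00292). The groups did not overlap for any of the 4, nor for Ptprb, Mllt4 and Jup among those called lower, while those of Cldn12 overlapped. How many of all genes do not overlap was not determined. The call of Mcam was lost without mouse 228 or 244 and without both 227 and 228.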

How the data were processed

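EC sorted from 4 healthy and 4 MI mice gave 1 library each. The authors aligned reads to mm10 with Cell Ranger and deposited 1 table of UMI counts, 16791 genes in 31028 cells, not normalized and already filtered (every cell had 403 genes or more, and mitochondrial UMIs reached 19.96%). R 3.5.2 and Seurat 2.3 are named in the submitters' processing notes. Groups came from the labels. No column was without a sample.

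A barcode shared by mice was called a copy where at least 90% of UMIs matched. Counts were summed per mouse, or per mouse and class with at least 20 cells, and tested with edgeR 4.0.16 in R 4.3.3 (filterByExpr, TMM, quasi-likelihood test, Benjamini-Hochberg adjustment over all genes tested, threshold 0.05), with the mouse as a block between classes. SE is the log2 fold change divided by the square root of F. CPM are counts per 1000000 UMIs of the same cells. The tests were tried on simulated counts first. Python 3.11.15 with numpy 2.4.6, scipy 1.17.1 and pandas 2.3.3 gave thinned values and Wilson 95% intervals, which reached at most 2.49 percentage points to either side for a mouse. These and the limit of 3 counts cover counting error only.

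The members, lists and rules were chosen with earlier results of these data known. Text names the 9 members, the 4 highest and 4 lowest called genes of the other junction list, and the 4 most similar genes. Alternatives were DESeq2 1.42.0, RLE scaling, no filter, thinned counts, copies kept, other gates and class rules, at most 10% mitochondrial UMIs, the cells with most UMIs left out (0.8% per 1000 cells, in place of a doublet caller, none of which was run), Xist as covariate, a second draw, 700 UMIs, and each mouse left out.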

Additional observations from a re-analysis of the deposited data

Results flagged for a closer look

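Claudin-5 had a different class pattern in the 2 groups. The excess of Cldn5 in sprouting over capillary cells was 1.02 on the log2 scale before and 0.15 after MI, and the interaction of −0.793 was called (edgeR, adjusted p = 5.34e-07). The sprouting classes of both groups hold cells with an Apln UMI, at median depths of 3047 and 4999 UMIs before thinning. The part of depth in the interaction was not tested beyond summing the thinned counts, where Cldn5 was again the 1 member called. That fit called 0.622% of 6270 genes, 0.431% lower.

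In 4 of 104 groups of 4 mice looked at, 1 mouse stood apart from the others by Dixon's criterion at 95%, which chance gives in about 1 of 20 groups. Tjp1 was at 96.4 CPM in arterial and 127 CPM in Plvap-high cells of MI mouse 256, the highest in both. Cdh5 was at 806 CPM in Plvap-high cells of MI mouse 255, and Cldn5 at 545 CPM in its cells that met no class rule, the lowest in both. Mouse 255 had the most venular and Plvap-high cells, 150 and 372.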

How the results depend on the processing

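Jam2 and Jam3 kept direction and call in all 19 alternatives for all EC, with log2 fold changes from −0.90 to −0.66 and from −1.08 to −0.69. Tjp1 was no longer called without mouse 227, 228, 244, 250 or 255 or without both mice 227 and 228 (−0.193). Cdh5 became called with DESeq2 (−0.202) and without mouse 239. With each mouse left out in turn, log2 fold changes ranged from −0.87 to −0.547 for Tjp1, from −0.258 to −0.166 for Cdh5, from −0.18 to 0.057 for Cldn5 and from −0.025 to 0.105 for F11r. The values of uncalled members changed sign for F11r in thinned cells (−0.018), without mouse 228 (−0.025) and without mice 227 and 228 (−0.063), for Esam without mice 227 and 228 (−0.039) and for Cldn5 without mouse 255 (0.057). Counts of members called follow, with the share of all genes called in brackets. In capillary cells after MI they fell from 3 (15.6%) to 1 with thinned counts (6.43%). With a mouse left out they ranged from 1 to 2 (7.9 to 17.3%). In sprouting cells they went from 1 (4.81%) to 0 with thinned counts (4.12%). They rose to 2 with copies kept (6.61%) or cells of several classes kept in each (6.33%), and ranged from 0 to 1 with a mouse left out (2.37 to 7.24%). In cells that met no rule they ranged from 1 to 3 with a mouse left out (23 to 37%). Members called in healthy sprouting against capillary cells went from 7 (23.8%) to 4 with thinned counts (18.5%). The cause was not tested. Over all genes, calls in all EC fell from 4594 to 2651 with thinned counts, from 1375 to 387 in capillary, 1030 to 284 in arterial, 360 to 121 in sprouting and 3920 to 2136 in cells without a class. Fewer genes were tested with thinned counts, and the shares called are given in the same order. They went from 37.3 to 24.9%, 15.6 to 6.43%, 12.9 to 6.39%, 4.81 to 4.12% and 33.1 to 21.2% of genes tested. Between classes of MI mice calls fell from 1665 to 726 (arterial), 1614 to 600 (sprouting), 2827 to 1084 (Plvap-high) and 2244 to 689 (venular). As shares these went from 16.5 to 12.2%, 16 to 10.1%, 28.1 to 18.3% and 22.3 to 11.6%. In healthy mice calls fell from 1139 to 597 (arterial, 734 with DESeq2) and 1535 to 547 (sprouting, 1005 with DESeq2). The genes tested fell from 6456 to 2957, and the share called rose from 17.6 to 20.2% (arterial) and fell from 23.8 to 18.5% (sprouting). DESeq2 called 11.4 and 15.6% of 6456 genes. In the interactions calls fell from 100 to 40 (arterial, 57 with DESeq2) and 300 to 39 (sprouting, 183 with DESeq2). As shares these went from 0.985 to 0.647% (0.561% with DESeq2) and from 2.95 to 0.622% (1.8% with DESeq2). For MI against healthy in sprouting cells, calls went from 360 of 7487 genes (4.81%) to 630 of 14974 (4.21%) with no filter, a smaller share. Of the group means of shares at equal depth, 108 of 108 alternative values moved by less than 1 SD between mice. Single mice moved further, as the Cdh5 share of mouse 228 did with copies kept (from 64.3 to 56.8%). No paired analysis was possible because the groups share no replicate numbers. P-values measure the spread between mice of 1 library each. Healthy sprouting and MI venular cells are few, and Jam3 and Tjp1 give the fewest UMIs among the members tested.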
